A study of Homo sapiens with 3 samples.

Results

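CXC chemokines are small secreted proteins that attract leukocytes. Most of their human genes lie in 2 blocks on chromosome 4, and 9 of them were examined here for anti-IRF3 peaks: CXCL1, CXCL2, CXCL3, CXCL5, CXCL6, CXCL8, CXCL9, CXCL10 and CXCL11. They were taken by name from the RefSeq annotation, which matched all 9 of the 9 names among 20033 protein-coding genes. All peaks within 10 kb of their spans and between them were taken from each list. CXCL1, CXCL2, CXCL3, CXCL5, CXCL6 and CXCL8 bind the neutrophil receptors CXCR1 or CXCR2 and are classic targets of NF-kB, a transcription factor family switched on by inflammatory and viral signals. They are called the NF-kB type. CXCL9, CXCL10 and CXCL11 bind CXCR3 on T cells and natural killer cells and are best known as interferon-induced genes, and they are called the interferon type. CXCL10 is also a widely used target gene of IRF3, the factor that is activated when a cell senses double-stranded RNA and that binds repeated GAAA-like elements. NF-kB factors bind kB sites, which begin with a run of G and end with a run of C.

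The cells were labelled BT549, a basal-like human breast cancer line, infected with lentiviral vectors to express Cas9 stably with a guide RNA and given polyI:C, an artificial double-stranded RNA, by transfection. There were 3 groups of 1 library each: a control guide, Smad3 guide 1 and Smad3 guide 2, where SMAD3 carries TGF-beta signals into the nucleus as a transcription factor. All 3 groups carried Cas9, received polyI:C and had no further stimulation, so none is an untreated control. The labels conflict on the cells: the titles call those of both Smad3 guides BT549-caSmad3 and those of control BT549, while the descriptions call all BT549. Whether the guides differ from control in parent line was not settled, and the sources used here do not say whether the guide cells were clones or a mixed culture. The question was where IRF3 binds when Smad3 is inactivated. With 1 library per group no difference between groups had a replicate check and none was tested. The control list held 18028 peaks, guide 1 16811 and guide 2 19609, with median widths of 396, 406 and 424 bp, and the depth of each library is unknown. Of 8 genes of mesenchymal and basal-like breast lines, all 8 had a peak within 10 kb in each list, beside 59.9% (control), 57.2% (guide 1) and 59.8% (guide 2) of all protein-coding genes. The counts for 8 luminal breast genes were 3 (control), 2 (guide 1) and 3 (guide 2). Of leukocyte genes, PTPRC, CD14 and LYZ had a peak in each list, while CD3E, CSF1R, CD2 and MS4A1 had none in any. A peak near a gene does not measure its expression.

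The promoters are shown first, because 8 of the 9 genes share a kB-type sequence close upstream of the start. The motif GGAANTTCC, where N is any base, reads the same on both strands. It was searched in the RefSeq promoter windows of build GRCh38.p14, which run from 250 bases before to 50 bases after each gene's start, and all 9 genes were in that table. It was present in 6 of 6 NF-kB type promoters and in 2 of 3 interferon type promoters, CXCL10 and CXCL11, against 0.964% (337) of 34943 promoter windows. The 6 were grouped as known targets of NF-kB, so a match in them was likely from the choice. Several of their promoters are also alike in sequence, as given below, so the 6 are not separate observations. Each line gives the match in capitals with 20 bases on each side, 5' to 3' on the gene's own strand.
CXCL1: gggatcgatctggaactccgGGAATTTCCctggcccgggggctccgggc
CXCL2: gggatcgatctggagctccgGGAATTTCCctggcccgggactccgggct
CXCL3: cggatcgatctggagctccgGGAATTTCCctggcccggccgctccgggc
CXCL5: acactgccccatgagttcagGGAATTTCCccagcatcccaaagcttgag
CXCL6: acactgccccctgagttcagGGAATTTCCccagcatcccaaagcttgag
CXCL8: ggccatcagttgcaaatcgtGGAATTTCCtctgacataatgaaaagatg
CXCL10: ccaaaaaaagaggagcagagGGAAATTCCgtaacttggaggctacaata
CXCL11: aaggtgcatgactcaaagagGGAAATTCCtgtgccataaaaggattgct
The first 6 lines have GGAATTTCC and the last pair has GGAAATTCC, which is the same sequence read on the opposite strand. The plus-strand stretches lay at chr4:73869295-73869343 for CXCL1, chr4:73836569-73836617 for CXCL6 and chr4:73740458-73740506 for CXCL8. The minus-strand stretches lay at chr4:74099244-74099292 for CXCL2, chr4:74038739-74038787 for CXCL3, chr4:73998739-73998787 for CXCL5, chr4:76023645-76023693 for CXCL10 and chr4:76036117-76036165 for CXCL11. The match began 78, 77 and 78 bases before the start of CXCL1, CXCL2 and CXCL3, 90 and 89 bases before that of CXCL5 and CXCL6, 91 bases before that of CXCL8, 176 bases before that of CXCL10 and 75 bases before that of CXCL11.

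An IRF-type sequence was present in the interferon type alone among the 9. The motif, GAAA, any 2 bases and GAAA again, searched on both strands, was found in the promoter windows of CXCL9 and CXCL10, in 0 of 6 NF-kB type windows, and in 3.57% (1248) of all 34943 windows. In CXCL11 these letters were not in the window. The matches are in capitals, with 20 bases on each side, from chr4:76007651-76007700 and chr4:76023689-76023738 on the minus strand of GRCh38.p14.
CXCL9: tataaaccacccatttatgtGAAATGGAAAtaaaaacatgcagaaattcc
CXCL10: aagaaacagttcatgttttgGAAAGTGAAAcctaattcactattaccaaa
They began 171 bases before the start of CXCL9 and 221 bases before that of CXCL10. In CXCL10 the IRF-type match began 45 bases upstream of the kB-type match. An AP-1 motif, TGANTCA, was found in CXCL8 and CXCL11, 137 and 87 bases before the start, against 7.72% of all windows. A short SMAD-type motif, GTCTG on either strand, was found in CXCL2, CXCL5 and CXCL10, but 45.3% of all windows hold it. A wider kB-type motif, GGG, any 5 bases and CC on either strand, was found in all 9 and in 58.6% of all windows. It overlaps the 9-letter match in every promoter that has one except that of CXCL8. These matches are descriptions of sequence and do not show binding.

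The promoters of 4 genes that differed in their peaks are given at full upstream length, the 250 bases before the start, with kB-type and IRF-type matches in capitals. CXCL1 had the strongest peak of the 9, CXCL8 had several peaks, and CXCL5 and CXCL10 had none.
CXCL1: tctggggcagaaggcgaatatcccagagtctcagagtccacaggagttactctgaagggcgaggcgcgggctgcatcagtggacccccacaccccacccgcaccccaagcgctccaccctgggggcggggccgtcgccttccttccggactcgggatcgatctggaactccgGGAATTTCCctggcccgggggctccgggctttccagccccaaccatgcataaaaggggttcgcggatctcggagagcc
CXCL8: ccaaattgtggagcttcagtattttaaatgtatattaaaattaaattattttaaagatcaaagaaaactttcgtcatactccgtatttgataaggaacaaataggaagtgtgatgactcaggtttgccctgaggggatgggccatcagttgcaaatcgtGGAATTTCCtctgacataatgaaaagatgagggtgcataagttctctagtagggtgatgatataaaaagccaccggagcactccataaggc
CXCL5: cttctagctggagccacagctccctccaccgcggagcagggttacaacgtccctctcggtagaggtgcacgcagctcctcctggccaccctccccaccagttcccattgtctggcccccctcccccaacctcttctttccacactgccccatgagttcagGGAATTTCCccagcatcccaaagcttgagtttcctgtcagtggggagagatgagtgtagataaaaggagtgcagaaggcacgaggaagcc
CXCL10: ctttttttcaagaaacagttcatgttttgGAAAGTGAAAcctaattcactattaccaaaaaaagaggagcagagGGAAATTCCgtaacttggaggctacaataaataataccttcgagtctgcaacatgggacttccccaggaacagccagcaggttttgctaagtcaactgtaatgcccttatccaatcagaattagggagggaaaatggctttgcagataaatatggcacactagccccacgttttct
They lie at chr4:73869143-73869392 and chr4:73740319-73740568 on the plus strand, and at chr4:73998678-73998927 and chr4:76023498-76023747 on the minus strand. In global alignments of these upstream stretches CXCL1 and CXCL3 were 81.4% identical, CXCL1 and CXCL2 70.1%, CXCL2 and CXCL3 73.4%, and CXCL5 and CXCL6 85.3%. CXCL1, CXCL2 and CXCL3 were 52.3% to 54.2% identical to CXCL5 or CXCL6. How the authors placed reads that match more than 1 paralog is not given in these sources, so peaks at CXCL1, CXCL2 and CXCL3 may share reads.

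Peaks were found at 4 of the 9 genes, the same 4 in every list: CXCL1, CXCL2, CXCL3 and CXCL8. All 4 are of the NF-kB type, so 4 of 6 genes of that type and 0 of 3 of the interferon type had a peak within 10 kb of the span. The 10 kb windows of CXCL9, CXCL10 and CXCL11 overlap, so these 3 are not separate observations and the contrast is a description. CXCL5 and CXCL6 had none in any list, and their 9-letter kB-type sequence is the same as that of CXCL1. Across all 20033 protein-coding genes, a peak lay within 10 kb of the span for 59.9%, 57.2% and 59.8% in the lists of control, guide 1 and guide 2. Having a peak is thus common, and the 4 of 9 were not above that background. The place of the peaks within their lists is a further description. A peak above the 95th percentile of its list lay within 10 kb of CXCL1 in every list and of CXCL2 in control, against 5.96% of all genes for control, 5.57% for guide 1 and 6.74% for guide 2. The median percentile of the strongest peak over the 4 genes was 90.7 (control), 87.9 (guide 1) and 91.7 (guide 2). Over all genes with a peak it was 71.3, 68.9 and 71.5. Percentiles are the percent of peaks in the same list with a lower deposited score. They do not measure a change between libraries, since the scale of the scores is not stated and the lists differ in length.

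**Figure D1:**
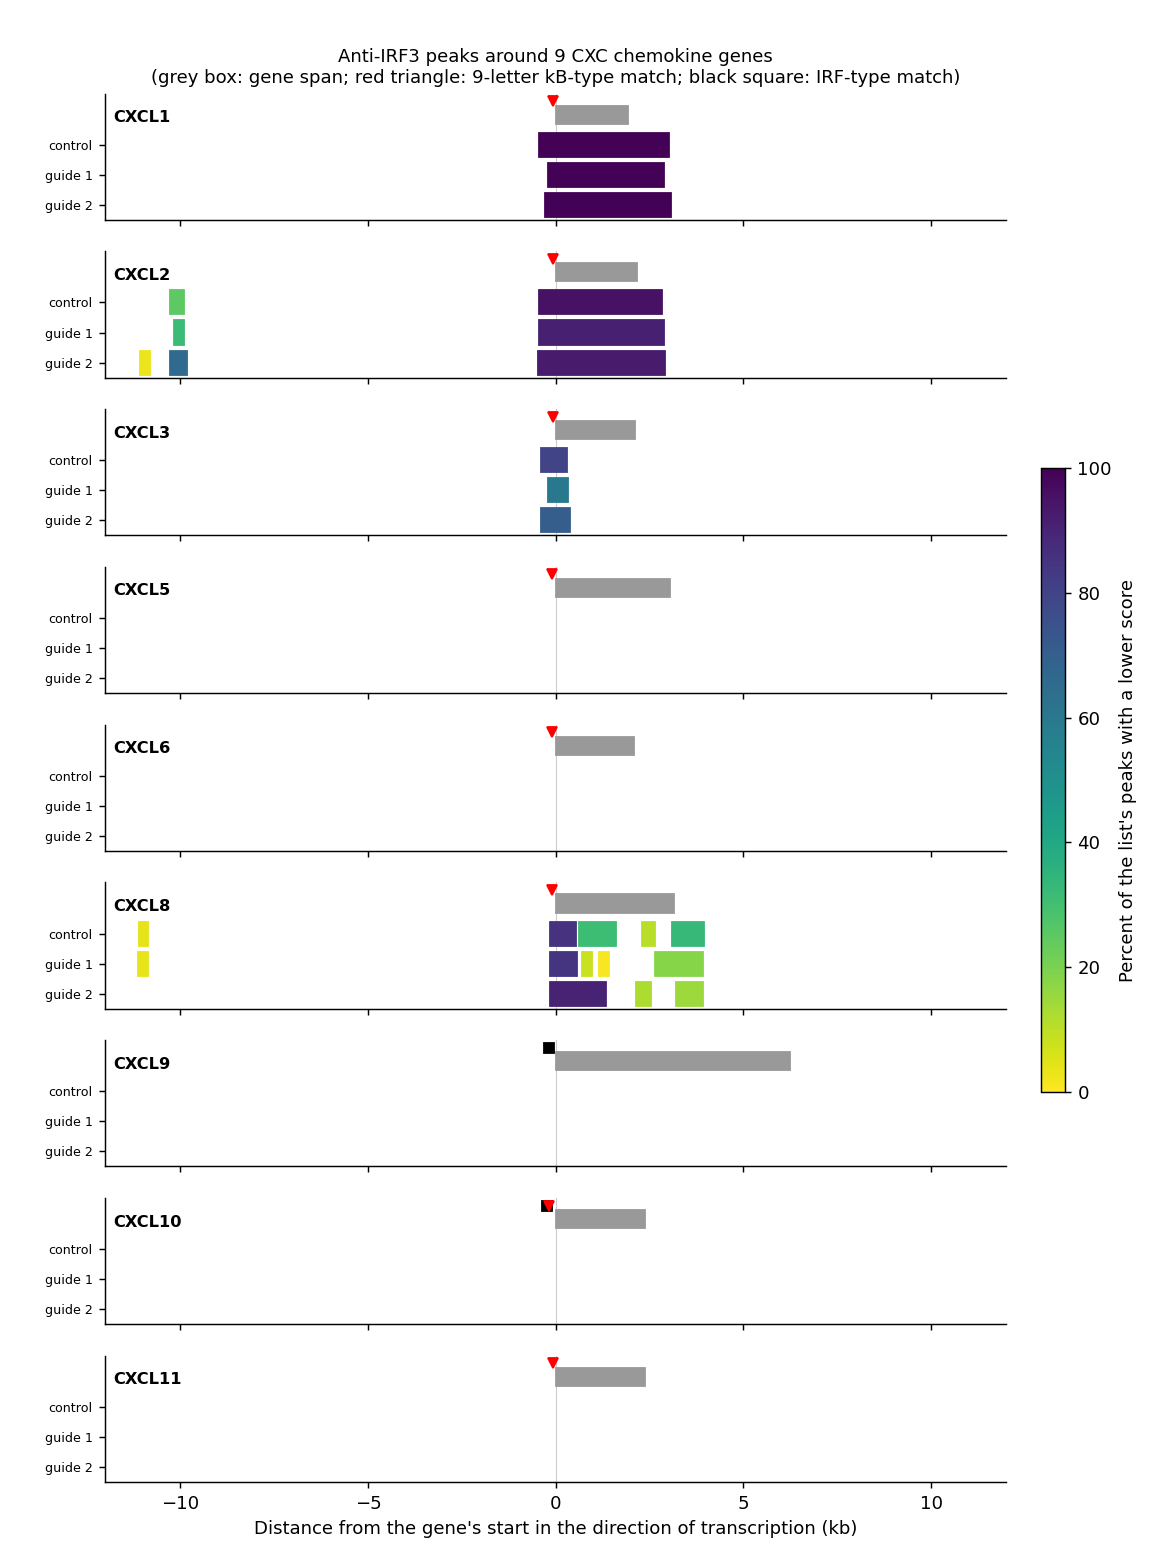
Peaks of each list (3 rows per gene) by distance in kb from the start of the 9 genes, in the direction of transcription; colour gives the percent of the list's peaks with a lower score, grey boxes are gene spans, red triangles kB-type and black squares IRF-type matches. Peaks cover the whole of CXCL1 and CXCL2, the start of CXCL3 and parts of CXCL8, and none is drawn at CXCL5, CXCL6 or CXCL9 to CXCL11.

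CXCL1 encodes the neutrophil-attracting chemokine GRO-alpha and lies on the plus strand (chromosome 4, 73869393 to 73871308, gene 2919). One peak covered the whole gene in each list, at 73868953 to 73872408 (control), 73869188 to 73872280 (guide 1) and 73869104 to 73872458 (guide 2). The deposited scores were 208.06, 171.04 and 187.35, and 98 of 18028, 95 of 16811 and 92 of 19609 peaks scored higher. The peak was therefore above 99.5%, 99.4% and 99.5% of its list, the highest place of the 9 genes in each. It was 3456, 3093 and 3355 bp wide, and 9, 12 and 12 peaks of the lists were wider. It began 440, 205 and 289 bases before the start and ran 1100, 972 and 1150 bases past the end of the gene. The kB-type match lay under the peak in all 3 lists.

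CXCL2, which encodes the related chemokine GRO-beta, lies on the minus strand (74097040 to 74099195, gene 2920). One peak covered the whole gene in each list, at 74096356 to 74099639 (control), 74096318 to 74099642 (guide 1) and 74096293 to 74099661 (guide 2). The scores were 109.33, 76.81 and 88.64, above 95.6%, 91.3% and 92.9% of the lists. The widths were 3284, 3325 and 3369 bp, and 11, 10 and 11 peaks were wider. So CXCL2 had a peak about as wide as that of CXCL1 at a lower place in each list. It reached 444, 447 and 466 bases upstream of the start and 684, 722 and 747 bases past the end, and the kB-type match lay under it in all lists. A separate weaker peak lay upstream of CXCL2, just inside the 10 kb limit, at 9910, 9904 and 9815 bp from the gene. It scored above 24.6%, 31.8% and 65.9% of the lists, and its region (74109011 to 74109466) lay nearer to MTHFD2L, a folate enzyme gene, with its midpoint 5322 bp from an end of that gene.

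Whole-gene cover was rare. Of all protein-coding genes, 0.339% (68, control), 0.334% (67, guide 1) and 0.354% (71, guide 2) were covered by peaks over their whole span, and CXCL1 and CXCL2 were among them in every list. Such genes were short, with median lengths of 491, 493 and 494 bp and a longest of 3257 bp, against a median of 24130 bp over all protein-coding genes. CXCL1 and CXCL2 are 1916 and 2156 bp long.

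CXCL3, which encodes GRO-gamma, lies on the minus strand (74036589 to 74038689, gene 2921) and had 1 peak in each list, placed over its start. The control peak ran from 74038388 to 74039095, the guide 1 peak from 74038357 to 74038904 and the guide 2 peak from 74038310 to 74039087. Their scores of 64.94, 43.53 and 54.14 were above 79.7%, 59.7% and 70.4% of the lists, the lowest of the 4 marked genes in each list. They were 708, 548 and 778 bp wide and covered 14.4%, 15.8% and 18.1% of the gene. Unlike those at CXCL1 and CXCL2, these peaks ended inside the gene. They covered 100%, 88.3% and 100% of the promoter window, with the kB-type match. The region merged from them (74038310 to 74039095) overlapped the neighbouring long non-coding RNA gene LOC105377275, so an assignment to CXCL3 alone cannot be made. The overlap was not read for each list's peak.

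CXCL8 encodes interleukin 8, a strong neutrophil attractant, and lies on the plus strand (73740569 to 73743716, gene 3576). Within 10 kb the control list had 4 peaks, guide 1 had 4 and guide 2 had 3, all on or just past the gene. The strongest lay over the start in each list: the control peak at 73740429 to 73741104, the guide 1 peak at 73740403 to 73741146 and the guide 2 peak at 73740403 to 73741901. These scored 74.21, 64.52 and 81.93, above 85.8%, 84.5% and 90.6% of the lists, and were 676, 744 and 1499 bp wide. They began 140, 166 and 166 bases before the start, and the AP-1 and kB-type matches lay under them in every list. The remaining peaks were weak. In control they scored above 31.5%, 10.8% and 33.1% of the list, in guide 1 above 7.83%, 0.857% and 18.2%, and in guide 2 above 12.4% and 14.9%. Together the peaks covered 61.6%, 52.6% and 55.1% of the gene. Merged across lists they formed 2 regions, 73740403 to 73742185 over the start and first part of the gene and 73742707 to 73744519 over its end. Both had a peak in all 3 lists. The lists thus differed in how many separate peaks the gene had.

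The order of the 4 genes by this percentile was CXCL1, CXCL2, CXCL8 and CXCL3 in each list. Between libraries the values of CXCL1 differed by less than 1 percentile point and those of CXCL3 ranged from 59.7 to 79.7, with no replicate to give a spread for either. Near the top of a list the percentile moves little with the score, so these ranges cannot be compared directly. In control, scores of 208.06 at CXCL1 and 109.33 at CXCL2 stood above 99.5% and 95.6% of the list. The genes nearest to CXCL1 by the distance between the 3 percentiles were BRD2 on chromosome 6, and APTX and DNAJA1 on chromosome 9. APTX and DNAJA1 had equal values in every list and may be counted through the same peak. Those nearest to CXCL8 were WDR89 on chromosome 14, FDFT1 on chromosome 8 and SLC25A44 on chromosome 1. This likeness rests on 3 libraries and is a description.

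**Figure D2:**
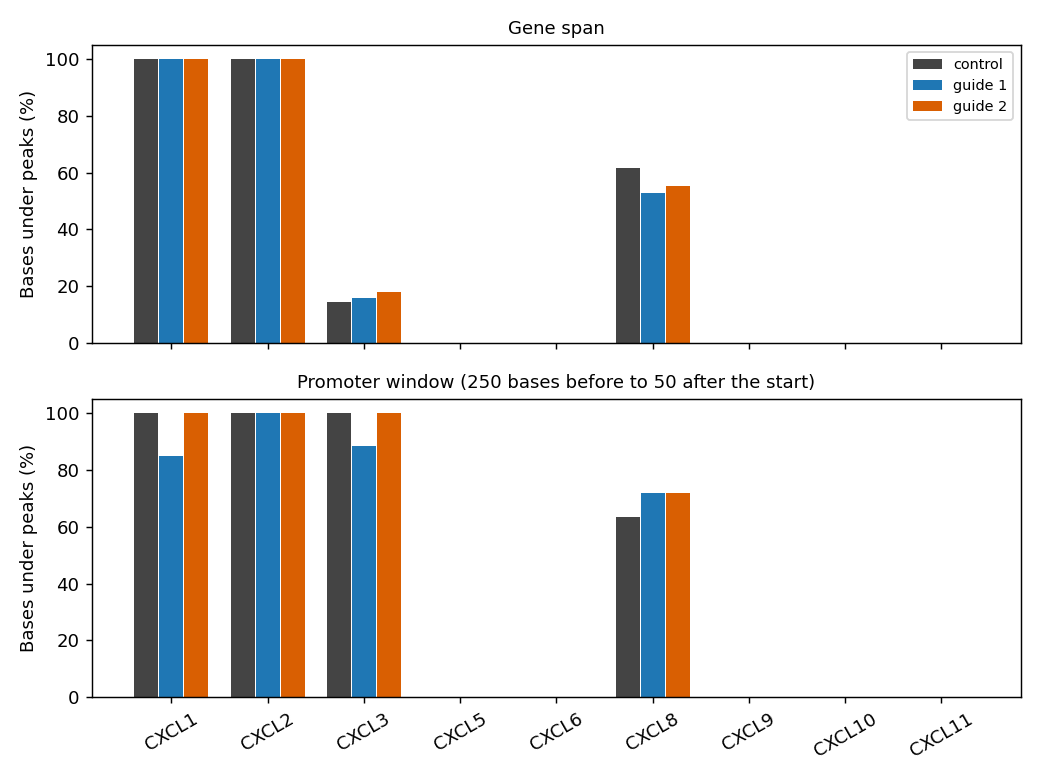
Percent of bases under peaks in the gene span (top) and in the promoter window (bottom) for 9 genes, with 1 bar per library. CXCL1 and CXCL2 are at 100% of the span in every library, CXCL8 at 52.6% to 61.6% and CXCL3 at 14.4% to 18.1%, while the other 5 are at 0.

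CXCL5 (73995642 to 73998677) and CXCL6 (73836678 to 73838760), which encode the neutrophil attractants ENA-78 and GCP-2, had no peak within 10 kb in any list. Their spans are 3036 and 2083 bp long, close to those of the marked genes. CXCL9 (76001275 to 76007509), CXCL10 (76021118 to 76023497) and CXCL11 (76033682 to 76036070), the CXCR3 ligands MIG, IP-10 and I-TAC, had none either, and neither the IRF-type nor the kB-type matches in their promoters lay under a peak. A list holds the peaks that passed the authors' threshold, so a missing peak does not show that no signal was there. The nearest peak to CXCL9 lay just outside the limit, at 10148 bp (control), 10144 bp (guide 1) and 10144 bp (guide 2). It scored above 75.9%, 56.7% and 66.7% of the lists, and its region (75990696 to 75991130) had its midpoint 32 bp from an end of SDAD1, a ribosome biogenesis gene. The region overlapped SDAD1 and the antisense gene SDAD1-AS1. Just outside the limit on the other block were a peak 10867 bp upstream of CXCL8 in control and 10874 bp in guide 1, and a guide 2 peak 10798 bp from CXCL2. All scored above less than 5% of their lists.

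Over all promoter windows, those with the 9-letter kB-type match had a peak in 39.8% (control), 36.2% (guide 1) and 39.2% (guide 2) of 337. Windows with the wider kB-type motif had nearly the same shares, 38.9%, 35.7% and 38.3% of 20486, so the higher share is not particular to the 9-letter match. The share over all 34943 windows was between 28.2% and 30.5%. Windows with the IRF-type match had a peak in 22.6%, 20.6% and 22.2% of 1248, which is below the share over all windows in each library. The 9-letter kB-type and IRF-type matches together, as in CXCL10, were found in 19 windows, of which 6, 5 and 5 had a peak. The windows holding AP-1 motifs had the lowest share, 14.9% to 16.6%. A peak was thus present over part of the windows in each group. Windows without these letters were not counted apart, and the share over all windows includes those that hold them. Taking the first listed window of each protein-coding gene, a peak lay over it for 44.6% (control), 41% (guide 1) and 43.5% (guide 2), and of the 9 chemokine genes 4 had one in each list. Base composition differs between these groups of windows and was not matched.

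**Figure D3:**
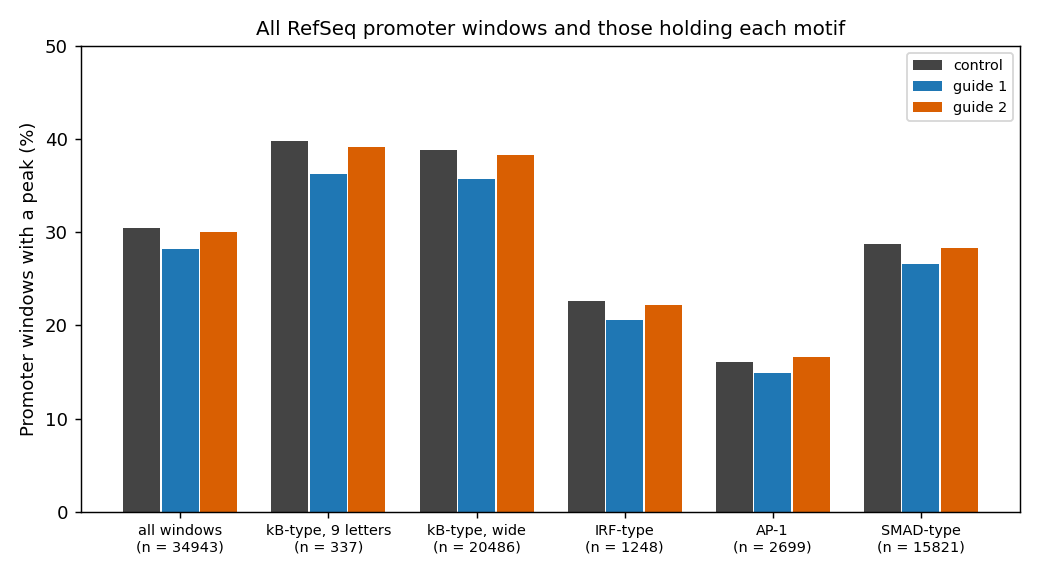
Percent of RefSeq promoter windows with an anti-IRF3 peak (y axis) for all windows and for those holding each motif, with 1 bar per library and the number of windows under each group. Windows with the 9-letter kB-type match stand at 36.2% to 39.8% and those with the IRF-type match at 20.6% to 22.6%, beside 28.2% to 30.5% for all. Those with the wider kB-type motif stand at 35.7% to 38.9%.

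The first block, with its 10 kb margins (73730569 to 74109195, 378.6 kb), held 11 regions after peaks of all lists were merged, and the second (75991275 to 76046070, 54.8 kb) held 0. The first block thus had 29.1 regions per Mb, against 4.68 per Mb over chromosome 4. The block was drawn around named genes and the chromosome rate covers all of it, and gene density was not matched. The second block is so short that it could well hold none at the chromosome rate. Of the 11 regions, 7 had a peak in all 3 lists, 2 in control and guide 2, and 2 in guide 2 alone. That is 63.6% in all lists, beside 67.9% of all 21208 merged regions. On chromosome 4 as a whole, 536 of 890 regions had a peak in all lists. With a reciprocal overlap of 50% the shares of the blocks and of all merged regions were 37.5% and 59.2%. With peaks at or above the median score they were 83.3% and 64.0%. None of the 11 regions set control apart from both guides. The list with the most peaks in all, guide 2, also had the regions found in 1 list.

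Between the genes, 5 regions lay beyond 10 kb of any of the 9 genes. The strongest, 73885496 to 73886350, lay 14187 bp past the end of CXCL1, overlapped no annotated gene and had a peak in all lists, above 52.2%, 55.7% and 66.7% of them. A region 45854 bp past CXCL1 (73917163 to 73917841) had a peak in control and guide 2, above 34.7% and 48.6%. The other 3 were 73777724 to 73777951 in control and guide 2, and 73776320 to 73776716 and 73883356 to 73883637 in guide 2 alone. They scored above 12.4% to 37.0% of their lists. The 4 regions of this block that were missing from a list all lay more than 10 kb from the genes and stood above at most 48.6% of a list, and each region over CXCL1, CXCL2, CXCL3 and CXCL8 was in all lists.

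The other CXC genes of chromosome 4 had few peaks. PF4, PF4V1 and PPBP, platelet chemokine genes that lie among the NF-kB type genes, had none within 10 kb in any list, and CXCL13, a B-cell attractant, had 1 in guide 2 alone, above 11.1% of the list. Among 4 CXC genes elsewhere in the genome, CXCL16 had a peak in every list, above 98.5%, 99.1% and 99.1%, which lay outside the gene span, and CXCL17 had one in guide 2. CXCL12 and CXCL14 had none. The receptor genes CXCR1, CXCR2, CXCR3, ACKR1 and ACKR3 had none in any list. Of 8 genes of NF-kB factors and inhibitors, all 8 had a peak by the control list and 7 by each guide list, and the exceptions were REL in guide 1 and TNFAIP3 in guide 2. NFKBIA, which encodes an inhibitor that NF-kB itself induces, stood above 97.9%, 94.2% and 93.4% of the lists. NFKBIZ stood higher in each, above 98.2%, 97.8% and 97.9%. Others of this list stood lower: REL above 21.1% in control and 30.1% in guide 2, TNFAIP3 above 33.1% in control and 38.7% in guide 1, and NFKB1 above 70.6%, 31.8% and 33.7%. The median over the list's genes with a peak was 72.3, 70.2 and 80.7, beside 71.3, 68.9 and 71.5 over all genes with one. The interferon regulatory factor genes IRF1, IRF3, IRF7 and IRF9 had a peak in every list. IRF9 stood above 91.6%, 93.9% and 92.5%, and IRF7 above 64.4%, 55.7% and 54.9%. Each of these counts is to be read beside the 57.2% to 59.9% of all genes with a peak in the same window.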

How the data were processed

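Anti-IRF3 ChIP-seq peak lists of 3 libraries, 1 per guide RNA, from cells labelled BT549 (BT549-caSmad3 in the titles of the Smad3 guides), were used as deposited. Per the submitters' processing notes, the tools were Bowtie2 2.2.2.6 and MACS2 2.1.0 and the build hg38, with no role or setting given. Thresholds, input libraries and read filters are not given in the sources used here. Each list gives positions and, for each peak, a deposited score whose scale the authors do not state. It was used to rank peaks within a list, and depth and precision are unknown. A further column, 0 for every peak, was not used.

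Positions are 1-based on hg38. Gene spans came from RefSeq GRCh38.p14, with protein-coding genes on chromosomes 1 to 22, X and Y as background, and promoters from the RefSeq promoter table of that build. The gene table gives no exons, so parts of a gene were not separated. A peak was counted for a gene when it overlapped the span extended by 10 kb by at least 1 bp. Genes less than 500 kb apart formed a block. Overlapping or touching peaks were merged into regions across lists. Motifs were searched in 34943 distinct promoter windows. Upstream stretches were aligned globally (Biopython 1.88, with a match of 1 and penalties of 1 for a mismatch, 2 for opening and 0.5 for extending a gap). Python 3.11.15, pandas 2.3.3 and numpy 2.4.6 were used, and the functions were tested on simulated peaks. No test between groups was made.

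All 9 members are named, with fixed lists of related genes and markers (some of their genes are not reported here) and, by rule, the 3 genes nearest in percentile to CXCL1 and to CXCL8. Other windows, score thresholds, list lengths and overlaps were tried. The members and lists were chosen with earlier results of these data known.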

Additional observations from a re-analysis of the deposited data

How the results depend on the processing

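With a window of 2 kb, with 10 kb around either gene end, with peaks at or above the median score and with lists of equal length, 4 of the 9 genes had a peak in every list. With the 5000 highest-scoring peaks there were 4 (control), 3 (guide 1) and 3 (guide 2), and CXCL3 had none in the guides. At 50 kb all 9 had one in every list, the 3 interferon type genes through the peak at SDAD1. The median percentile of the strongest peak then became 79.7 (control), 59.7 (guide 1) and 70.4 (guide 2). Within peaks at or above the median it was 81.5, 76.2 and 83.7, within lists of equal length 90.0 in control and 90.4 in guide 2, and within the 5000 highest 66.4 over 4 genes, and 70.6 and 72.1 over 3 genes without CXCL3. These lists are shorter and these medians do not cover the same genes. Over the same 3 genes the control median was 84.1, the value of CXCL2. The blocks held 6 regions with peaks at or above the median, 4 with the 5000 highest, and 16 with a reciprocal overlap of 50%. The share in all lists was then 83.3%, 75% and 37.5%, beside 64.0%, 61.7% and 59.2% of all merged regions. The median covered share of the NF-kB type was 38.0% (control), 34.2% (guide 1) and 36.6% (guide 2). With peaks at or above the median it was 15.7%, 17.1% and 30.2%, with the 5000 highest 15.7%, 9.18% and 21.2%, with lists of equal length 30.2% in guide 2, and over the span with 2 kb on both sides 26.0%, 22.6% and 24.6%. The cause of these shifts beyond the smaller number of peaks or the longer stretch was not tested. No paired analysis was possible because each group holds 1 library, and no library could be left out. Depth is unknown, so a peak missing from a list may lie below its threshold.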

Other observations

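Upstream of CXCL8, beyond the 10 kb limit, the long non-coding RNA gene INKILN had 2 regions with a peak in all 3 lists (named after the values were seen). The region 73704255 to 73704945 lay 35623 bp from CXCL8 and scored above 44.3% of the control list, 69.6% of guide 1 and 69.8% of guide 2. The region 73707934 to 73708580 lay 31988 bp from CXCL8 and scored above 41.3%, 41.4% and 51.3%. Between these and CXCL8 were 3 narrow regions in no gene, of which none was in all lists. The stretch of 1882 kb between both gene blocks held 13 regions, or 6.91 per Mb, of which 7 had a peak in all lists, 3 in both guides alone, 1 in control alone, 1 in guide 2 alone and 1 in control and guide 2. Over all merged regions, 67.9% had a peak in all lists, 5.65% in both guides alone and 5.70% in control alone. Of the 890 regions of chromosome 4, 536 had a peak in all lists, 80 in both guides alone and 56 in control alone.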
